A study of Mus musculus with 16 samples.

Results

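Epidermal growth factor (EGF) was left out of the medium of 2 mouse tumour organoid lines, MTO100 and MTO101, and their RNA was compared with that of the same lines in full medium. The comparison used 8 of the 16 libraries of the study, chosen by their titles: 4 without EGF and 4 in full medium, described across all genes. Mouse tumour organoids are clusters of tumour epithelium kept in drops of basement membrane extract and passaged as single cells. The study calls both lines APT and labels them triple mutants. By the field's usual reading, which the labels do not spell out, APT stands for lesions in Apc, Trp53 and Tgfbr2, and both media groups carry them. How the lesions were made, and whether a line is 1 clone, is not given in the sources used here.

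Full medium contained 50 ng/ml recombinant human EGF, 100 ng/ml noggin, which blocks BMP ligands, 1 µM galunisertib, which blocks the kinase of the type I TGF-beta receptor, and B-27 without retinoic acid. The other medium lacked EGF. RNA was taken at day 4 in full medium and at day 7 without EGF, so the loss of EGF and the 3 further days in culture cannot be told apart. Each line and medium had 2 libraries, from passages 10 and 11 of MTO100 and passages 8 and 9 of MTO101. The earlier passage went into pool 1 and the later into pool 2, so pool and passage cannot be told apart either. Nothing in the labels says that the cultures of a group were started separately, and the p-values measure the spread between these libraries, which may be partly technical.

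EGF binds the receptor kinase EGFR, which passes its signal through RAS, RAF and MEK to the kinase ERK and, in parallel, through PI3K to AKT. ERK switches on transcription factors, cyclin D and a set of inhibitors that act back on the pathway, and AKT keeps FOXO factors out of the nucleus. In the healthy intestine EGF comes largely from Paneth cells and drives division of crypt stem cells, and cultured crypts deprived of it stop dividing.

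The 8 libraries held 17250612 to 21443787 reads on genes each. The values below are reads divided by the authors' size factor, called normalised reads, and levels are compared between libraries and never between genes. RNA concentrations were 168 to 1586 ng/µl in full medium and 13.2 to 354 ng/µl without EGF (exact permutation test, two-sided p = 0.0857, n = 4 per group). The lowest were the 2 pool 2 libraries without EGF, at 14.6 ng/µl for MTO100 and 13.2 ng/µl for MTO101, called the low-RNA libraries here. Fewer cells and less RNA per cell cannot be told apart. Mitochondrially encoded genes took 1.9% ± 0.152 of reads in full medium and 3.16% ± 0.637 without EGF (SD, n = 4 per group, exact permutation test, two-sided p = 0.0286, the smallest that 4 against 4 libraries can give). Genes with at least 1 read numbered 17619 to 18209 in full medium and 19268 to 19375 without EGF.

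The genes of the lesions were read in every library because they bear on the labels. Apc stood at 938 and 1083 in full medium against 2693 and 2024 without EGF in MTO100, and 978 and 1892 against 3411 and 3956 in MTO101, in normalised reads. Trp53 ranged from 91.2 to 149.8 in full medium and from 163 to 252 without EGF, and Tgfbr2 from 1236 to 3199 and from 877 to 3353. Apc and Trp53 were higher in all 4 libraries without EGF, with log2 changes of 1.32 ± 0.21 (SE, adjusted p = 0.000532) and 0.73 ± 0.23 (SE, adjusted p = 0.0225), and the Tgfbr2 groups overlapped. The call of Trp53 was lost without the pool 1 full-medium library of MTO100 or either low-RNA library (adjusted p 0.0528 to 0.0814). A gene's total does not show whether an allele is intact, and the lesions were not tested by it. All 10 epithelial markers were measured: none was higher and 2 were lower, Cldn7 (-0.63 ± 0.16) and the intestinal factor Cdx2 (-1.28 ± 0.29). The call of Cldn7 was lost with library-total scaling (adjusted p = 0.0526). Cdx2 was not called by limma in MTO100 alone (-0.46, adjusted p = 0.14). The summed level of the 10 markers was 100867 to 182044 normalised reads in full medium and 125016 to 144731 without EGF. Of 10 fibroblast markers 3 passed the filter on low values and 2 were higher, with summed levels of 585 to 676 and 656 to 1173. The immune list summed to 33.5 to 155 and 89.9 to 135, and the endothelial list to 411 to 831 and 1147 to 1906.

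With the line as a term, limma called 6969 of 14373 genes (48.5%) at an adjusted p under 0.05, 3849 higher without EGF (26.8%) and 3120 lower (21.7%), and 2239 rose (15.6%) and 1372 fell (9.55%) by at least 2-fold. The median log2 change of all tested genes was 0.08, and that is the value to set the list medians below against. Counts of list members are likewise to be set against 26.8% higher and 21.7% lower. Scaling to library totals instead called 5068 genes higher and 2082 lower and moved that median to 0.30. Both lines gave the same sign for 6843 of the 6969 calls. The calls were made on the change averaged over both lines in these same libraries. That selection largely fixes the agreement, which therefore does not test whether the lines respond alike. With both low-RNA libraries left out, 3804 genes were called (1951 higher and 1853 lower). Each line then has 1 library without EGF, which is assumed to vary like the others.

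Most of the EGF family ligands that were measured were higher at day 7 without added EGF than at day 4 in full medium. Of 11 ligand genes 5 passed the filter, at least 10 normalised reads in at least 4 of the 8 libraries, and 3 of these were higher and none lower, also without the low-RNA libraries. TGF-alpha (Tgfa, Entrez gene 21802, chromosome 6, 86195038 to 86275744), an EGFR ligand made by the epithelium itself, stood at 508 and 895 in full medium against 1313 and 1073 without EGF in MTO100, and 489 and 920.2 against 2703 and 2752 in MTO101, in normalised reads, pool 1 before pool 2 in each pair here and below. All 4 libraries without EGF lay above all 4 in full medium, and the rise from 703 ± 237 to 1959.9 ± 891 (SD, n = 4) was a log2 change of 1.42 ± 0.29 (SE, adjusted p = 0.00234). Betacellulin (Btc), a ligand of EGFR and ERBB4, stood at 159 and 175 in full medium against 370.2 and 274 without EGF in MTO100, and 78.3 and 106 against 280.4 and 229.7 in MTO101. Its groups did not overlap either, and its log2 change was 1.20 ± 0.22 (adjusted p = 0.00112). Amphiregulin (Areg) stood at 58.3 and 93.9 in full medium against 151 and 169 without EGF in MTO100, and 28.8 and 21.5 against 67.7 and 60.0 in MTO101. In each line both libraries without EGF were above both in full medium, and the log2 change was 1.21 ± 0.25 (adjusted p = 0.00263). The 4 against 4 libraries overlapped, since MTO101 held less Areg in both media. Hbegf (-0.21 ± 0.23) and Nrg4 (0.62 ± 0.36) were not called, and Egf itself stayed at 3.46 to 14.2 normalised reads in the 8 libraries, under the filter. None of the 6 genes that release ligands from the membrane was called by limma, edgeR or DESeq2 (1 at an unadjusted limma p under 0.05; limma called 1 higher without both low-RNA libraries), among them the sheddase Adam17 (0.17 ± 0.21).

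Receptors and adaptors moved both ways. Of 17 tested genes of the ERBB list 5 were higher (29.4%) and 2 lower (11.8%), against 26.8% and 21.7% of all genes. Without the low-RNA libraries 4 were higher and 0 lower. The median log2 change was 0.14. Egfr (Entrez gene 13649, chromosome 11, 16752203 to 16913907) stood at 360.4 and 397 in full medium against 821 and 672 without EGF in MTO100, and 354 and 635 against 592 and 654 in MTO101. It rose by 0.68 ± 0.22 (adjusted p = 0.0222), with 1 library in full medium inside the range of those without EGF. The call was lost without either pool 1 library of MTO100 or the pool 1 full-medium library of MTO101 (adjusted p 0.0534 to 0.0728), and without both low-RNA libraries. The adaptor Gab1 (1.04 ± 0.16), which links receptors to PI3K, the exchange factor Sos2 (0.86 ± 0.20), which loads RAS, and the receptor inhibitor Lrig2 (1.26 ± 0.25) rose, while the adaptors Shc1 (-0.63 ± 0.15) and Grb7 (-0.52 ± 0.15) fell. With library-total scaling the calls of Shc1 and Grb7 were lost (adjusted p 0.0771 and 0.136). Leaving out the pool 1 library of MTO100 without EGF left 3 genes of the list higher. Erbb2 (0.14 ± 0.21), Erbb3 (0.27 ± 0.28) and the feedback inhibitor of EGFR Errfi1 (0.13 ± 0.18) were not called.

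Other receptor kinases rose in 7 and fell in 1 of 17 tested (2 and 0 without the low-RNA libraries), with a median of 0.62 (0.31 without the pool 1 full-medium library of MTO101). The insulin receptor-related receptor Insrr, a sensor of alkaline pH, stood at 0 and 2.85 in full medium against 73.7 and 112 without EGF in MTO100, and 8.06 and 13.8 against 188 and 576 in MTO101, in normalised reads. It was close to 0 in MTO100 in full medium and higher in every library without EGF, a log2 change of 5.19 ± 0.49 (adjusted p = 2.49e-05). Insrr passed the filter on low values only through the libraries without EGF, and fell below it without both low-RNA libraries. Ret, the receptor for the glial cell line-derived neurotrophic factor family, stood at 125 and 65.5 in full medium against 416 and 334 without EGF in MTO100, and 95.6 and 152 against 718 and 772 in MTO101. All 4 libraries without EGF held more Ret than any in full medium, with a log2 change of 2.32 ± 0.26 (adjusted p = 5.85e-05). The insulin receptor Insr rose by 0.97 ± 0.25, the MSP receptor Mst1r by 2.63 ± 0.42 and Tyro3 by 0.97 ± 0.21, and Ephb2, a WNT-regulated crypt receptor, fell by 0.85 on the log2 scale, a call lost with library-total scaling (adjusted p = 0.0605). Met (0.62 ± 0.31) and Igf1r (0.77 ± 0.33) did not pass the test, though Igf1r was called with the pool as a block (adjusted p = 0.00644) and without the pool 2 full-medium library of MTO100 (0.036) or MTO101 (0.0203), and Met without the low-RNA library of MTO100 (0.0482). In the core RAS and ERK cascade 3 of 16 genes were higher (18.8%) and 4 lower (25%), against 26.8% and 21.7% of all genes. Without the low-RNA libraries 2 were higher and 2 lower. The called genes included the kinase Braf (1.10 ± 0.20) and the GTPase Hras (-0.90 ± 0.21). The list median was -0.07 and 0.16 with library-total scaling, so its direction depends on the scaling.

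**Figure D1:**
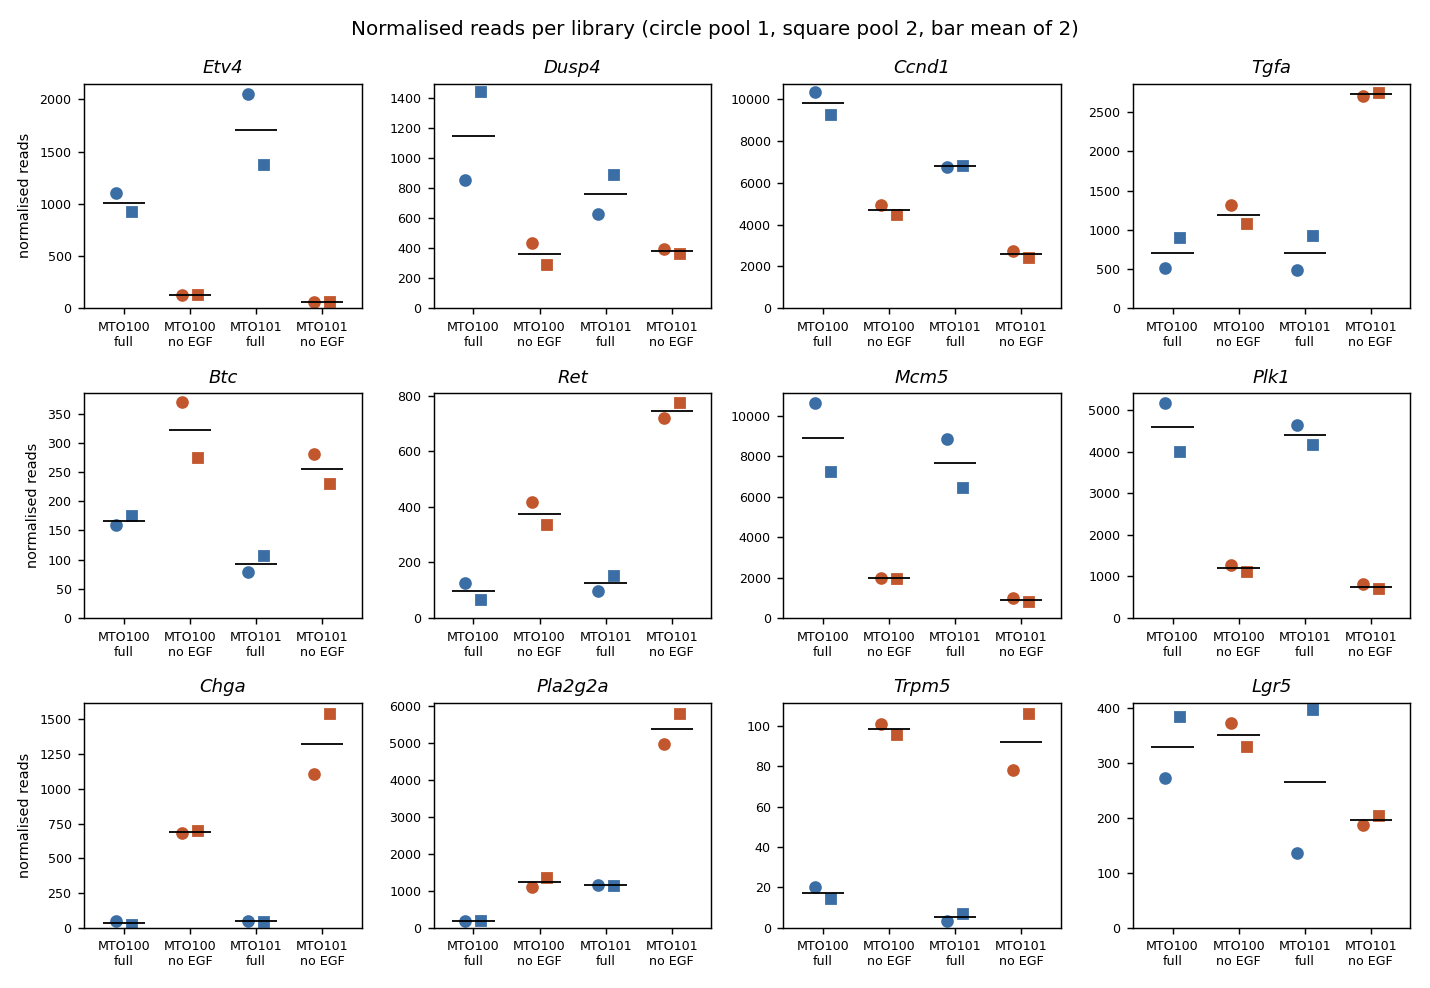
Normalised reads (y axis, linear, from 0) of 12 genes in the 8 libraries, by line and medium (x axis); circles are pool 1, squares pool 2 and bars the mean of the 2 libraries. Etv4, Dusp4, Ccnd1, Mcm5 and Plk1 lie lower without EGF in every pair, Tgfa, Btc, Ret, Chga, Pla2g2a and Trpm5 higher, and the 2 conditions of Lgr5 overlap.

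Genes that read out ERK activity fell. Of the 10 genes of a published MAPK pathway activity score 6 were lower and 1 higher (6 and 0 without the low-RNA libraries), with a median log2 change of -1.16. Etv4 (Entrez gene 18612, chromosome 11, 101769747 to 101785310), an ETS transcription factor induced by ERK, stood at 1100.4 and 923 in full medium against 121 and 130.3 without EGF in MTO100, and 2051 and 1367 against 58.2 and 54.4 in MTO101, in normalised reads. Every library in full medium held more than 7 times the level of the highest without EGF, and the change from 1360.4 ± 495 to 91.0 ± 40.2 (SD, n = 4) was -3.93 ± 0.33 on the log2 scale (adjusted p = 1.61e-05). Its fall was larger in MTO101 (-4.87) than in MTO100 (-3.00), a difference of -1.88 ± 0.36 (adjusted p = 0.024) that lost its call without any 1 library of MTO100 or either library of MTO101 without EGF (adjusted p 0.0554 to 0.12). Dusp4, a phosphatase that inactivates ERK in the nucleus, stood at 849 and 1435 in full medium against 434 and 289 without EGF in MTO100, and 629 and 888 against 396 and 363 in MTO101. No library without EGF reached the lowest in full medium, and the change was -1.31 ± 0.24 (adjusted p = 0.00112). Etv5 (-1.49 ± 0.26), the ephrin receptor Epha2 (-1.10 ± 0.18) and the feedback inhibitor Spry4 (-2.12 ± 0.41) also fell, and Epha4 rose (0.89 ± 0.23). Dusp6 (-0.35 ± 0.25), Spry2 (-0.37 ± 0.18) and Phlda1 (0.01 ± 0.21) of the same score were not called; Dusp6 (adjusted p = 0.0222) and Spry2 (0.0299) were without the pool 1 full-medium library of MTO101.

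The feedback inhibitors of ERK did not move as 1 group. Of 16 tested 6 fell and 4 rose (6 and 2 without the low-RNA libraries). The falls were in Spry4, in Spred1 (-1.28 ± 0.23) and Spred2 (-1.09 ± 0.22), which act on RAS, and in the ERK phosphatases Dusp4, Dusp5 (-1.37 ± 0.28) and Dusp9 (-1.88 ± 0.28). The rises were in Dusp10 (1.79 ± 0.21), Dusp16 (1.60 ± 0.18) and Dusp8 (0.82 ± 0.26), phosphatases known mainly for acting on the stress kinases JNK and p38, and in Spry1 (0.67 ± 0.23), another inhibitor of RAS signalling. Dusp8 and Spry1 each lost their call in 4 of the 8 fits that left out 1 library, and were among those lost without both low-RNA libraries. For Dusp8 these were the pool 1 full-medium libraries and the low-RNA libraries (adjusted p up to 0.092), and for Spry1 the pool 1 full-medium libraries and both MTO101 libraries without EGF (adjusted p up to 0.092). Of 21 tested transcription factors that ERK can induce, 7 fell and 3 rose (6 and 3 without the low-RNA libraries, and 6 rose without the pool 2 full-medium library of MTO100). Myc, a driver of growth, fell from 3884 ± 404 to 2031 ± 295 normalised reads (log2 change -0.94 ± 0.15), and Fosl1 (-1.54 ± 0.36) and Ier5 (-0.78 ± 0.19) fell, while Jun (1.66 ± 0.23), Klf6 (0.96 ± 0.17) and Fosl2 (1.34 ± 0.30) rose. Fos (-0.29 ± 0.29), Egr1 (0.54 ± 0.23) and Srf (-0.18 ± 0.14) were not called.

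Of 22 genes linked to PI3K and FOXO 7 were higher (31.8%) and 1 lower, near the 26.8% of all genes called higher (3 and 0 without the low-RNA libraries; median 0.27). Fbxo32, a ubiquitin ligase subunit induced by FOXO, rose from 1277 ± 616 to 6287 ± 3973 normalised reads (log2 change 2.16 ± 0.23, adjusted p = 4.57e-05). Pik3ip1, an inhibitor of PI3K, rose by 2.37 ± 0.25, and the kinase Akt1 fell (-0.60 ± 0.15), a call lost with library-total scaling (adjusted p = 0.0588).

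**Figure D2:**
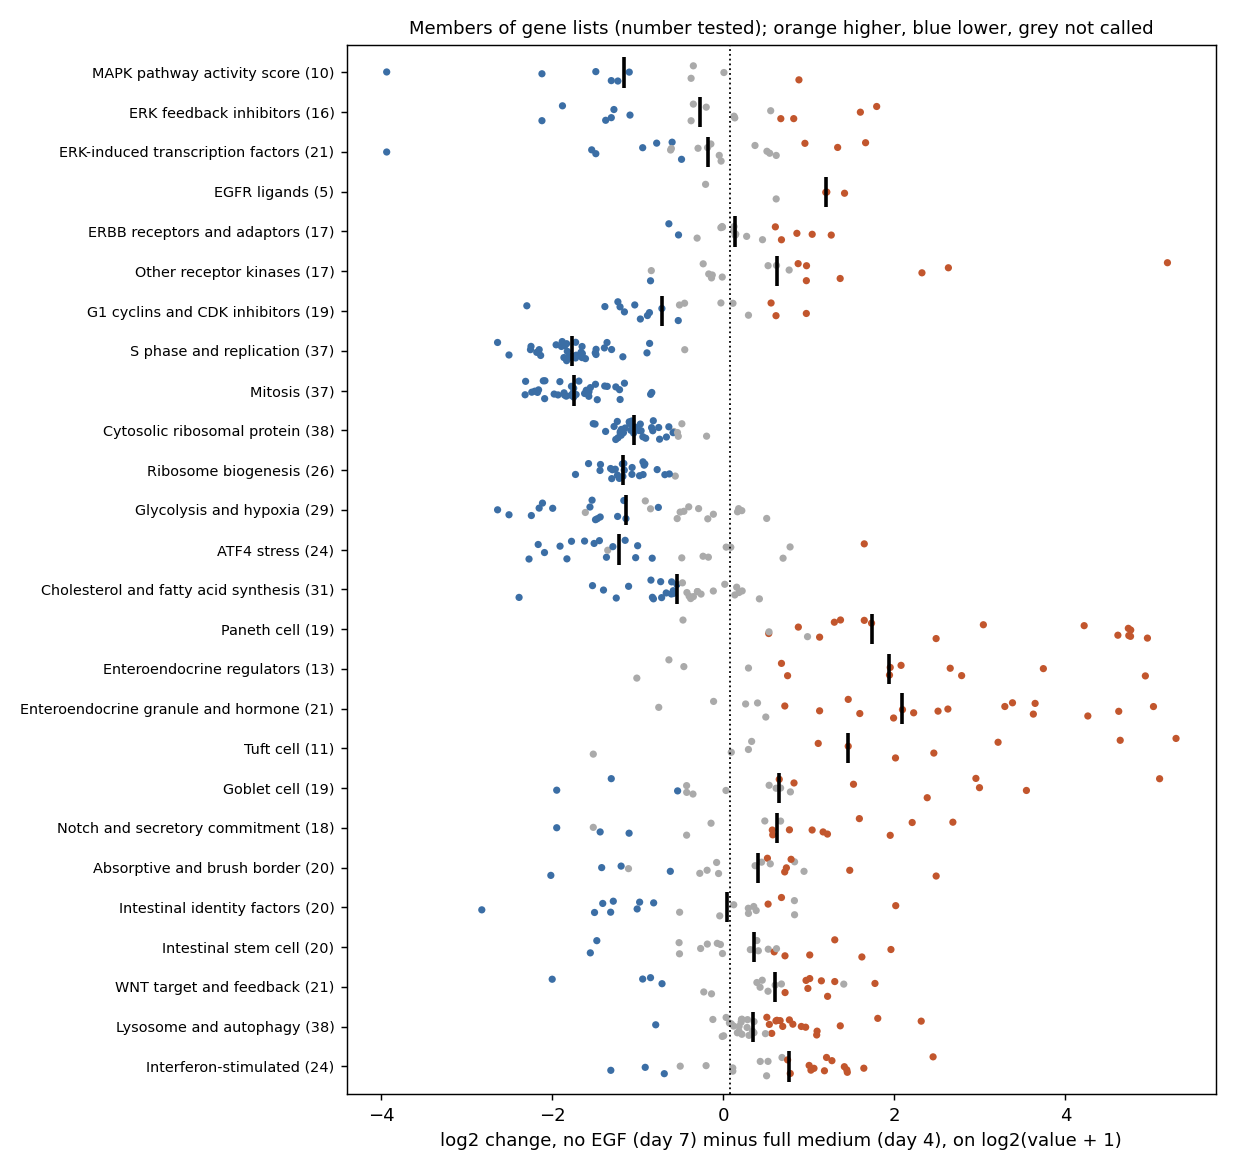
Log2 change without EGF (x axis, on log2 of normalised reads + 1) of each tested member of 26 gene lists (y axis, number tested in brackets); orange points were called higher, blue points lower, grey points not called, black bars are list medians and the dotted line is the median of all genes, 0.08. S phase, mitosis and ribosomal lists lie to the left of 0, and Paneth, enteroendocrine and tuft lists mostly to the right.

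Many genes of the G1 machinery fell. Of 19 tested G1 cyclins, kinases and inhibitors 11 were lower and 3 higher (8 and 2 without the low-RNA libraries), with a median of -0.72. Cyclin D1 (Ccnd1, Entrez gene 12443, chromosome 7, 144929931 to 144939831), the ERK-induced partner of CDK4 and CDK6, stood at 10345 and 9258 in full medium against 4945 and 4464 without EGF in MTO100, and 6766 and 6801 against 2743 and 2398 in MTO101. The groups did not overlap and the change was -1.23 ± 0.16 (adjusted p = 0.000147). Cyclin D2 (Ccnd2) stood at 1614 and 1286 in full medium against 629.8 and 534 without EGF in MTO100, and 889 and 903 against 88.9 and 94.1 in MTO101. It fell by more in MTO101 (-3.28) than in MTO100 (-1.31; difference -1.97 ± 0.31, adjusted p = 0.0106), a difference lost without the pool 1 library lacking EGF of either line or the low-RNA library of MTO101 (adjusted p 0.0571 to 0.0797). Ccnd3 (-1.21 ± 0.14), cyclin E1 (Ccne1, -1.38 ± 0.17) and Cdk2 (-0.89 ± 0.15), which open S phase, also fell. Among the inhibitors of cyclin-dependent kinases, Cdkn2b (0.97 ± 0.25) rose, Cdkn2a (-0.97 ± 0.22) and Cdkn2c (-1.15 ± 0.22) fell, and p21 (Cdkn1a, 0.11 ± 0.25) and p27 (Cdkn1b, -0.03 ± 0.17) were not called.

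S phase and mitosis genes fell almost without exception. Of 37 S phase and replication genes 36 were lower and none higher (median -1.77), and all 37 mitosis genes were lower (median -1.75), against 21.7% of all genes. The counts were 36 and 37 again without the low-RNA libraries. S phase genes are switched on by E2F factors once cyclin D and E kinases inactivate the retinoblastoma protein, and many mitosis genes are switched on later through a promoter element called CHR. Promoters of 2 strongly called members of each list that hold the element are printed to show where it lies. They run from 250 bases before the start that the RefSeq table uses, which need not be the outermost base of the gene, to 50 after it, 5′ to 3′ on the gene's strand, with sequence from RefSeq on GRCm38.p6, with the matched letters in capitals. The E2F element was searched as TTT, 2 bases that are each C or G, and CGC, and CHR as TTTGAA or TTCGAA, on both strands.
Mcm5: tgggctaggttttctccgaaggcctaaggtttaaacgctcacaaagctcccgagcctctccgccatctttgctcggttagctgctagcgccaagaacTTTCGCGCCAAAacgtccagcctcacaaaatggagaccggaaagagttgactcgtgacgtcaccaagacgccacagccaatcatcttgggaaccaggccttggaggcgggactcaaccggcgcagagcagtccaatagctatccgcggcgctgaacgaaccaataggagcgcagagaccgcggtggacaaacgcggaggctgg
Cdt1: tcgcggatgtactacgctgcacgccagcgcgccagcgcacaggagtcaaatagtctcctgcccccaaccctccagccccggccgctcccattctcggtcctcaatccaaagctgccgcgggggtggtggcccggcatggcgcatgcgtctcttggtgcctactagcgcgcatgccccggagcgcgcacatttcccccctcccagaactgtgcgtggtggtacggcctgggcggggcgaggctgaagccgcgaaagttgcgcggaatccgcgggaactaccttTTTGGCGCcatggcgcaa
Aurka: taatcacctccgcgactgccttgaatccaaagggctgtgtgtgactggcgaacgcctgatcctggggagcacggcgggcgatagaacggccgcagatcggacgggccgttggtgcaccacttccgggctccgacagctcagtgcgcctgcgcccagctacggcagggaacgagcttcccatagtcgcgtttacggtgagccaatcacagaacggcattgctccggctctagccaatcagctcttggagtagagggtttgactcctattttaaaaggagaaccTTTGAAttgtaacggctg
Plk1: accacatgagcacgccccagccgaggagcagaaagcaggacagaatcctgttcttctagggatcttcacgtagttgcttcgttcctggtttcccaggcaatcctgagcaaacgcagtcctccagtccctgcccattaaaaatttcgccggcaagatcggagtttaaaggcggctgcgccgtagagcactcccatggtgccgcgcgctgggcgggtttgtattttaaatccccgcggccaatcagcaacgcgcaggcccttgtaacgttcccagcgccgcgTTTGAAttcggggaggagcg
The Mcm5 window (chr8:75109259-75109558, plus strand) held 2 overlapping matches on opposite strands upstream of the start. The match in Cdt1 (chr8:122567765-122568064, plus strand) began 32 bases after the start. The CHR matches in Aurka (chr2:172370521-172370820, minus strand) and Plk1 (chr7:122159185-122159484, plus strand) began 32 and 30 bases after it. The position is not fixed: in Kif2c, whose p lay between those of Aurka and Plk1 and whose promoter is not printed, the match was upstream. It began at base -103 from the start and was on the opposite strand. Over the lists, 11 of 32 S phase promoters found in the table (34.4%) held the E2F element, against 2.32% of all 27025 promoters and 4.07% of the 10809 of tested genes, and 1 of 30 mitosis promoters did. CHR was in 23 of 30 mitosis promoters (76.7%), against 19.4% of all and 14.2% of those of tested genes, and in 7 of 32 S phase promoters. A match describes the letters only and does not show that a factor binds there.

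Mcm5 (Entrez gene 17218, chromosome 8, 75109468 to 75128439), a subunit of the replicative helicase, stood at 10609.9 and 7208 in full medium against 1991 and 1923 without EGF in MTO100, and 8844 and 6437 against 979 and 774 in MTO101, in normalised reads. The fall from 8275 ± 1852 to 1416 ± 629.9 (SD, n = 4) was -2.64 ± 0.23 on the log2 scale (adjusted p = 1.79e-05), with no overlap. Cdt1, which loads that helicase at origins, stood at 2531 and 2608 in full medium against 702 and 767 without EGF in MTO100, and 2524 and 2031 against 408 and 363 in MTO101. It fell in all 4 pairs, with a log2 change of -2.18 ± 0.18 (adjusted p = 1.61e-05). Plk1, a mitotic kinase, stood at 5172 and 3992 in full medium against 1281 and 1109 without EGF in MTO100, and 4637 and 4168 against 804 and 704 in MTO101. It too was lower in every library without EGF (log2 change -2.24 ± 0.18, adjusted p = 1.16e-05), as was the mitotic kinase Aurka (-2.10 ± 0.16). Thymidine kinase 1 (Tk1, -2.50 ± 0.21), the ribonucleotide reductase subunit Rrm2 (-2.25 ± 0.19), cyclin B1 (Ccnb1, -2.32 ± 0.20) and the kinesin Kif2c (-2.08 ± 0.17) fell in both lines, with no line difference called. The median fall of both lists was larger in MTO101 (-2.19 and -2.12) than in MTO100 (-1.37 and -1.44), though limma called the difference for no single member (18 of 37 and 13 of 37 at an unadjusted p under 0.05), and neither did edgeR.

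Histone genes that are expressed in S phase split by class. Of 49 tested replication-dependent histone genes 11 fell and 9 rose (11 and 2 without the low-RNA libraries). The rises numbered 3 to 5 without the pool 1 full-medium or pool 1 no-EGF library of MTO100, or any of the pool 2 full-medium and the no-EGF libraries of MTO101. All 11 falls were in the H2A class, with log2 changes from -3.64 to -2.88, and none of the 4 H1, 12 H2B, 10 H3 and 11 H4 genes fell. H2ac11 (chromosome 13), 1 of the 11, stood at 4929 and 3216 in full medium against 330.5 and 640.3 without EGF in MTO100, and 5741 and 2019 against 179 and 264 in MTO101, in normalised reads. The groups were far apart in both pools, with a change of -3.54 ± 0.35 (adjusted p = 3.02e-05). The H2A genes of the chromosome 13 cluster are near-identical copies, so how reads were split among them is uncertain. The remaining tested H2A gene, H2ac20 on chromosome 3, rose (2.60 ± 0.28). Replication-dependent histone mRNAs mostly lack a poly(A) tail, and these libraries were made from poly(A) RNA, so the values cover only tailed transcripts. The list took 0.186% ± 0.0564 of reads in full medium and 0.067% ± 0.00909 without EGF (SD, n = 4). The replication-independent H2A variant H2ax, which marks DNA breaks when phosphorylated, fell by 1.32 on the log2 scale.

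**Figure D3:**
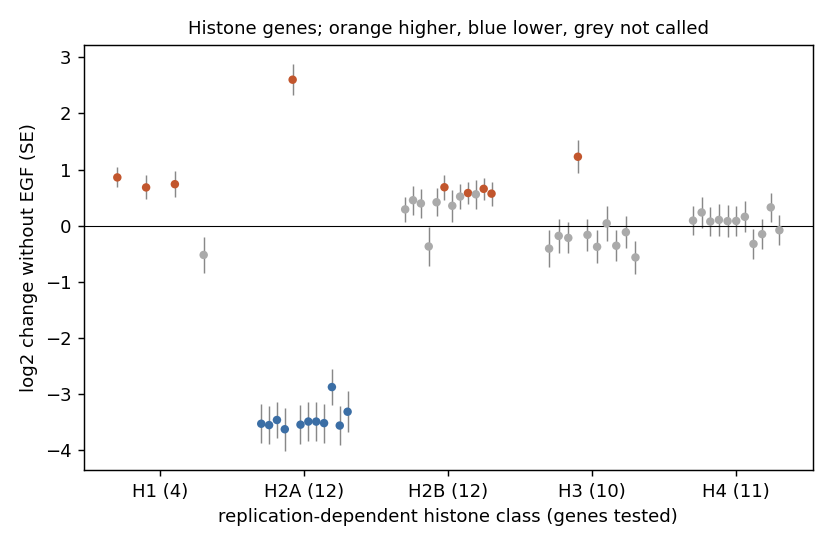
Log2 change without EGF (y axis, with the standard error) of the 49 tested replication-dependent histone genes by class (x axis); orange was called higher, blue lower and grey not called. The 11 lower H2A genes lie between -3.64 and -2.88, apart from all other classes.

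Genes of protein synthesis fell. Of 38 cytosolic ribosomal protein genes 33 were lower and none higher (22 without the low-RNA libraries; median -1.04), and of 26 ribosome biogenesis genes 25 were lower (21; median -1.17). The ribosomal protein list took 4.95% ± 1.24 of reads in full medium and 2.9% ± 0.47 without EGF (SD, n = 4 per group, exact permutation test, two-sided p = 0.0286). Rpl13, a large subunit protein, fell by 1.17 on the log2 scale and Rps2, a small subunit protein, also fell; both have processed copies that could share reads. Tcof1 (-1.73 ± 0.21), which supports transcription of ribosomal RNA, and Pes1 (-1.16 ± 0.15), which matures the large subunit, fell.

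Respiratory chain genes fell in the nuclear genome and rose in the mitochondrial one. Of 25 nuclear genes 17 were lower and none higher (7 without the low-RNA libraries; median -0.72), among them Cyc1 of complex III (-1.31 ± 0.17) and Ndufv1 of complex I (-0.98 ± 0.18). Of 13 mitochondrially encoded genes 6 were higher and none lower (5 without the low-RNA libraries; median 0.56). ND4 of complex I rose from 14892 ± 1057 to 36248 ± 10318 normalised reads (log2 change 1.24 ± 0.20, adjusted p = 0.000497), and CYTB of complex III by 1.11 ± 0.19.

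Genes of energy metabolism and biosynthesis fell in several lists. Glycolysis and hypoxia genes were lower in 15 of 29 and higher in none (12 without the low-RNA libraries; median -1.14). The pool 2 full-medium library of MTO100 held the highest level of 27 of the 29. Without it 14 were lower and 5 higher, and the median was -0.51. Lactate dehydrogenase A (Ldha, Entrez gene 16828, chromosome 7, 46842274 to 46855627), which turns pyruvate into lactate, stood at 33559.8 and 78988 in full medium against 7349 and 7719 without EGF in MTO100, and 43596 and 30638 against 8735 and 6911 in MTO101. All 4 libraries without EGF lay below those in full medium (log2 change -2.50 ± 0.27, adjusted p = 5.34e-05), and the pool 2 full-medium library of MTO100 held the most. Pyruvate kinase (Pkm, -1.49 ± 0.21), a step earlier in the pathway, fell as well. Of 24 ATF4 stress genes 15 fell and 1 rose (14 and 0 without the low-RNA libraries; median -1.22), and the falls included serine synthesis. Shmt2, the mitochondrial enzyme that passes carbon from serine to folate, stood at 7452 and 7538 in full medium against 1638 and 1814 without EGF in MTO100, and 7720.4 and 5499 against 1348 and 1099.6 in MTO101 (log2 change -2.27 ± 0.17, adjusted p = 7.75e-06). The serine synthesis enzymes Psat1 (-1.91 ± 0.19) and Phgdh (-1.77 ± 0.20) were also lower in every library without EGF.

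Cholesterol and fatty acid synthesis genes were lower in 16 of 31 and higher in none (7 lower without the low-RNA libraries, 10 without that of MTO100; median -0.54), among them Fdps (-1.53 ± 0.23), which makes farnesyl diphosphate. Of 20 NRF2 and glutathione genes 13 fell and none rose, against 21.7% of all genes lower (4 fell without the low-RNA libraries, 8 without that of MTO101 and 7 without the pool 1 full-medium library of MTO100; median -0.68), among them the cystine transporter Slc7a11 (-1.29 ± 0.17) and Gclm (-0.72 ± 0.17), which makes glutathione. Fatty acid oxidation genes rose in 4 and fell in 2 of 21 (3 and 2; median 0.02). Cpt1a, which lets fatty acids into mitochondria, rose by 1.19 ± 0.25.

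Many genes of secretory cell types rose. Paneth cells make antimicrobial proteins at the crypt base. Of 24 genes of the Paneth list 19 passed the filter, 16 were higher and none lower (8 without the low-RNA libraries), with a median of 1.73 against 26.8% of all genes higher. A gene that is near 0 in full medium passes the filter only through the other group, and with the filter at 50 instead of 10 normalised reads 10 Paneth genes were called higher. The summed level of the list was 8013 to 9646 normalised reads in full medium and 18498 to 30470.0 without EGF. Pla2g2a (Entrez gene 18780, chromosome 4, 138831857 to 138835189), an antimicrobial phospholipase, stood at 172 and 189.7 in full medium against 1112 and 1344 without EGF in MTO100, and 1167 and 1132 against 4986 and 5799 in MTO101. It rose in both lines (log2 change 2.49 ± 0.17, adjusted p = 3.9e-06), and the groups overlapped because MTO101 held more of it in both media. Lysozyme (Lyz1) stood at 444 and 331 in full medium against 2919.7 and 2447 without EGF in MTO100, and 12.7 and 6.88 against 544 and 492 in MTO101. Its rise of 4.22 ± 0.47 (adjusted p = 6.22e-05) was larger in MTO101 (5.64) than in MTO100 (2.80; difference 2.84 ± 0.42, adjusted p = 0.00757). The alpha-defensin Defa22 stood at 21.2 and 12.3 in full medium against 988 and 1188 without EGF in MTO100, and 13.8 and 3.44 against 57.1 and 101 in MTO101. It rose in both lines (4.61 ± 0.56), to higher levels in MTO100, as did Defa21 (4.74 ± 0.52), and the alpha-defensins are near-identical copies whose reads may be shared. Mmp7 (1.30 ± 0.20), which activates defensins, Itln1 (1.73 ± 0.21) and Ang4 (3.04 ± 0.45) rose as well, and Reg3b (0.99 ± 0.38) and Reg3g (0.54 ± 0.36) did not pass the test.

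Enteroendocrine cells are the hormone-producing cells of the intestine, made through Neurog3. Of 20 regulators 13 passed the filter, 9 were higher and none lower (4 and 1 without the low-RNA libraries; median 1.94), and of 32 granule and hormone genes 21 passed, 16 were higher and none lower (9 without the low-RNA libraries; median 2.10). Over all genes 26.8% were higher. That share is not fully comparable, since members near 0 in full medium pass the filter only through the libraries without EGF. With the filter at 50 normalised reads 7 regulators were called higher. Without 1 of the 4 libraries lacking EGF the regulators had 5 or 6 higher genes and a median of 0.66 to 0.81. The granule and hormone list had 9 without the low-RNA library of MTO100, 10 without that of MTO101, and 8 with the filter at 50 normalised reads. Neurog3 stood at 109 and 44.6 in full medium against 279 and 255 without EGF in MTO100, and 23 and 37.0 against 109 and 130.1 in MTO101. It rose within each line (1.95 ± 0.30, adjusted p = 0.000409), with MTO100 higher in both media. Chga (Entrez gene 12652, chromosome 12, 102554941 to 102565027) encodes chromogranin A, a core protein of hormone granules, and stood at 46.6 and 19 in full medium against 684 and 697 without EGF in MTO100, and 51.8 and 43.0 against 1110.0 and 1539.6 in MTO101. The groups were far apart, and the rise from 40.1 ± 14.6 to 1008 ± 406 (SD, n = 4) was 4.62 ± 0.27 (adjusted p = 2.4e-06). The regulators St18 (4.93 ± 0.44), Runx1t1 (3.74 ± 0.44), Insm1 (2.65 ± 0.34) and Nkx2-2 (2.79 ± 0.51) rose, as did the prohormone convertase Pcsk1 (4.26 ± 0.32), the vesicle fusion protein Snap25 (5.03 ± 0.37) and Chgb (3.65 ± 0.36). Hormone genes differed: neurotensin (Nts) stood at 35.0 and 29.4 in full medium against 496 and 490.0 without EGF in MTO100, and 21.9 and 6.02 against 25.4 and 38.7 in MTO101, a rise (2.63 ± 0.52) seen mainly in MTO100 with no line difference called (adjusted p = 0.099). Secretin (Sct, -0.11 ± 0.55) was not called, and Gip, Pyy and Sst had at most 1.74 normalised reads in any library. Of 7 glia and neuron markers 3 passed the filter and all 3 rose, among them Elavl4 (3.35 ± 0.37) and Tubb3 (1.43 ± 0.22). Here too the filter favours low genes that are high without EGF. With the filter at 50 normalised reads 1 marker was called higher, and 2 were when any 1 library lacking EGF was left out. The list summed to 89.2 to 151 in full medium and 345 to 452 without EGF, while Sox10 and Gfap stayed near 0. The part of these markers in these changes was not tested.

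Tuft cells are chemosensory cells that carry taste signalling proteins. Of 20 tuft genes 11 passed the filter, 7 were higher and none lower, against 26.8% of all genes higher (4 without the low-RNA libraries, 3 with the filter at 50; median 1.46, and 0.94 without the pool 1 library of MTO101 lacking EGF). For this list too the share is not fully comparable, since members near 0 in full medium pass the filter only through the libraries without EGF. The taste channel Trpm5 stood at 20.1 and 14.2 in full medium against 101 and 95.6 without EGF in MTO100, and 3.46 and 6.88 against 78.3 and 106 in MTO101. Every library without EGF held more than any in full medium (log2 change 3.21 ± 0.37, adjusted p = 7.93e-05). The factor Pou2f3 (2.46 ± 0.31), which defines the lineage, Plcb2 (5.29 ± 0.54) and Gnat3 (4.64 ± 0.45) of the same signalling path rose. Dclk1, a common tuft marker, stood at 5.3 and 2.85 in full medium against 33.0 and 16.5 without EGF in MTO100, and 42.6 and 37.0 against 12.7 and 10.1 in MTO101. It was higher without EGF in MTO100 and lower in MTO101, a difference of -4.03 ± 0.69 (adjusted p = 0.0145) that was lost without the pool 1 library lacking EGF of either line or the low-RNA library of MTO101 (adjusted p 0.0619 to 0.0887). Gfi1b, a factor of tuft cells, differed the same way (-4.65 ± 0.63, adjusted p = 0.00528).

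Goblet cells make mucus, and Notch signalling keeps progenitors from the secretory fate. Of 19 tested goblet genes 8 rose and 3 fell (4 and 1 without the low-RNA libraries, 5 higher without the pool 1 library of MTO101 lacking EGF; median 0.66): Capn9 rose (3.00 ± 0.23), and Creb3l1 (-1.95 ± 0.28), a factor of secretory cells, and Agr2 (-1.31 ± 0.36), a disulfide isomerase of mucin folding, fell. In the Notch and secretory commitment list 10 of 18 rose and 3 fell (3 and 3 without the low-RNA libraries; median 0.63), and 5 or 6 rose without either pool 1 full-medium library or either library of MTO101 lacking EGF. The ligand Dll1, carried by secretory precursors, rose from 18.9 ± 6.64 to 121 ± 9.61 (log2 change 2.69 ± 0.30), Gfi1 (2.21 ± 0.47) and the Notch target Hey1 (1.59 ± 0.28) rose, and the ligand Jag2 (-1.44 ± 0.20) and the Notch target Nrarp (-1.10 ± 0.19) fell.

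Stem cell genes did not move together. Of 20 tested 6 rose (30%) and 2 fell (10%), against 26.8% and 21.7% of all genes (4 and 2 without the low-RNA libraries). The median was 0.36, and 0.16 to 0.22 without either pool 1 full-medium library or the low-RNA library of MTO101. Lgr5, the R-spondin receptor of crypt stem cells, stood at 274 and 384 in full medium against 374 and 329 without EGF in MTO100, and 137 and 396 against 187 and 205 in MTO101. The groups overlapped in both lines and the change of -0.07 ± 0.29 was not called (adjusted p = 0.861). Smoc2, another gene of the Lgr5 cell signature, stood at 6070.4 and 6466 in full medium against 26278 and 27425 without EGF in MTO100, and 8190.5 and 13490.1 against 38804 and 35655 in MTO101. It rose in every pair (log2 change 1.96 ± 0.20, adjusted p = 3.35e-05). Ascl2, a WNT-dependent stem cell factor, fell within each line (-1.55 ± 0.19), Cdca7 fell (-1.48 ± 0.30), Msi1 (1.62 ± 0.28), Bmi1 (0.72 ± 0.17) and the ubiquitin ligase Rnf43 (1.01 ± 0.26), which removes WNT receptors, rose, and Axin2 (0.39 ± 0.21) and Sox9 (-0.52 ± 0.28) were not called. Olfm4, a stem cell marker in the mouse small intestine, had at most 3.17 normalised reads.

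WNT target and feedback genes rose in 8 and fell in 4 of 21 tested (4 and 2 without the low-RNA libraries; median 0.61), and without the pool 1 full-medium library of MTO100 5 rose and the median was 0.35. The rises included the secreted WNT inhibitor Notum, from 4378 ± 1496 to 9855 ± 1518 normalised reads (SD, n = 4), Znrf3 (1.30 ± 0.25), the partner of Rnf43, Nkd1 (0.99 ± 0.24) and Prox1 (1.77 ± 0.24), and the falls Sp5 (-2.0 ± 0.44). Sp5 stood at 1251 and 1455 in full medium against 807 and 988 without EGF in MTO100, and 5034 and 4483 against 436 and 461 in MTO101. Its fall was steep in MTO101 and small in MTO100.

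Of 20 intestinal identity factors 3 rose and 8 fell (1 and 6 without the low-RNA libraries; median 0.04), against 26.8% and 21.7% of all genes. Hnf4a, a master regulator of enterocyte genes, fell in each line (-1.41 ± 0.20), and the hindgut factor Hoxb13 (-2.82 ± 0.45) and Isx (-1.01 ± 0.22) fell, while Foxa2 (0.68 ± 0.18), which also acts in enteroendocrine cells, rose. Absorptive and brush border genes rose in 6 (30%) and fell in 4 (20%) of 20 tested, near the shares of all genes. Without the low-RNA libraries 2 rose and 3 fell. Leaving out the pool 2 full-medium library of MTO101, or either of its libraries lacking EGF, left 2 or 3 higher. The glucose transporter Slc5a1 rose (2.49 ± 0.57) and the cadherin Cdh17 fell (-2.01 ± 0.25). Of 19 genes of the fetal-like regenerative list 9 rose and 6 fell (2 and 3 without the low-RNA libraries, 5 higher without that of MTO101), with osteopontin (Spp1, 2.73 ± 0.28) and clusterin (Clu, 0.74 ± 0.17) higher and Ly6a (-1.94 ± 0.27), the surface protein Sca-1, and Ly6c1 (-3.22 ± 0.34) lower.

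Of 22 tested survival genes of the BCL2 family and its partners 6 were higher (27.3%) and 3 lower (13.6%), against 26.8% and 21.7% of all genes (5 and 2 without the low-RNA libraries; median 0.08, equal to that of all genes). Bcl2, which blocks cell death, stood at 136 and 194 in full medium against 980.2 and 1010.4 without EGF in MTO100, and 243 and 427 against 1758 and 2311 in MTO101. The groups were apart in both lines (log2 change 2.63 ± 0.21, adjusted p = 1.19e-05). Bmf (1.59 ± 0.28), a pro-apoptotic member, also rose, and the pro-apoptotic Bak1 (-0.84 ± 0.18) fell. Of 22 p53 target genes 7 rose (31.8%) and 4 fell (18.2%), near the shares of all genes (4 and 2 without the low-RNA libraries). Mdm2 (0.87 ± 0.15), which degrades p53, was higher and the mitotic gene Gtse1 (-1.91 ± 0.18) lower. Lysosome and autophagy genes rose in 16 of 38 and fell in 1 (5 and 0 without the low-RNA libraries, 9 or 10 higher without either library of MTO101 lacking EGF; median 0.35); the protease cathepsin D (Ctsd, 2.31 ± 0.30) and the autophagy kinase Ulk1 (0.96 ± 0.19) rose. Circadian clock genes rose in 6 of 16 and fell in none (6 without the low-RNA libraries; median 0.24), among them the clock repressors Cry2 (1.94 ± 0.19) and Per3 (2.26 ± 0.27). The hour of collection is not given in the sources used here.

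Interferon-stimulated genes rose in 13 and fell in 3 of 24 tested (8 and 1 without the low-RNA libraries; median 0.77). The RNA sensor Ddx58 rose from 715 ± 201 to 1613 ± 162 normalised reads (log2 change 1.21 ± 0.17, adjusted p = 0.000264), the nucleic acid sensor Zbp1 by 2.45 ± 0.31 and Ifit1 by 1.64 ± 0.32. Of 13 antigen presentation genes 3 rose (23.1%, against 26.8% of all genes) and none fell. Without the low-RNA libraries 2 rose, and 5 did without the pool 2 full-medium library of MTO100. Il18, an epithelial cytokine, stood at 74.2 and 45.5 in full medium against 1095 and 1189 without EGF in MTO100, and 70.3 and 55.0 against 804 and 804 in MTO101. The groups were far apart in both lines, with a log2 change of 3.97 ± 0.22 (adjusted p = 1.97e-06).

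In the TGF-beta list, measured in lines whose name is read as a Tgfbr2 lesion, 7 of 19 genes rose and 2 fell (5 and 1 without the low-RNA libraries; median 0.52, and 0.24 without the pool 1 full-medium library of MTO100). The ligand Tgfb2 (2.20 ± 0.22) and the co-receptor Tgfbr3 (2.94 ± 0.28) rose and the ligand Tgfb1 fell (-2.11 ± 0.28). BMP and ID genes rose in 5 (29.4%) and fell in 3 (17.6%) of 17, against 26.8% and 21.7% of all genes (3 and 3 without the low-RNA libraries). The ligand Bmp4 was higher (1.95 ± 0.24) and Id1, a BMP target, lower (-1.20 ± 0.23). Laminin, collagen and integrin genes rose in 10 and fell in 4 of 25 (6 and 0 without the low-RNA libraries; median 0.44, and 0.22 without the pool 1 full-medium library of MTO101), among them the proteoglycan Podn (3.90 ± 0.22), Col23a1 (3.94 ± 0.35) and the laminin chain Lamb3 (1.53 ± 0.25).

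Nuclear-retained noncoding RNAs were among the genes that rose. Malat1 (Entrez gene 72289, chromosome 19, 5795690 to 5802672), a nuclear-retained RNA, stood at 788 and 1623 in full medium against 7659.9 and 31901 without EGF in MTO100, and 609 and 861 against 7841 and 28493 in MTO101. It rose in every pair (log2 change 4.08 ± 0.47, adjusted p = 7.93e-05), and among the libraries without EGF the low-RNA library of each line was the higher by more than 3 times. Without both low-RNA libraries the change was 3.10 (adjusted p = 0.000317). Neat1 stood at 402 and 1137 in full medium against 3385 and 5747 without EGF in MTO100, and 212 and 633 against 2853 and 6406 in MTO101 (log2 change 3.12 ± 0.42, adjusted p = 0.0002); its pool 2 library held more than its pool 1 library in each line and in both media. Of 8 tested RNAs of this list 4 rose and none fell (3 without the low-RNA libraries). The part of the RNA amount in these values was not tested.

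Called genes that moved 1 way in each of the 4 pairs of a line and a pool, and whose log2 CPM averaged at least 3, were ranked by their change. The ranking left out the replication-dependent histones, of which the 11 H2A genes described above fell with changes of -3.64 to -2.88, gene models with no established symbol and genes not reported here. The highest rise was in Srpk3 (Entrez gene 56504, chromosome X, 73772608 to 73778925), a kinase of splicing factors. It stood at 37.1 and 28.5 in full medium against 1025 and 1548 without EGF in MTO100, and 23 and 23.2 against 2128 and 2657 in MTO101. The mean without EGF was 65.8 times that in full medium, a log2 change of 5.93 ± 0.29 (adjusted p = 1.97e-06). Gp2, a glycoprotein of M cells and pancreatic granules, stood at 97.5 and 126 in full medium against 2188 and 1789 without EGF in MTO100, and 44.9 and 53.3 against 1840.1 and 2183 in MTO101 (4.74 ± 0.25, adjusted p = 1.97e-06). Its groups were as clearly apart. Rtl5 (4.50 ± 0.30), a gene derived from a retrotransposon, Cd200r2 (4.34 ± 0.37) and Tgm3 (3.84 ± 0.22), a transglutaminase, were also among the 15 highest, beside Chga, Lyz1, Malat1, Il18, Podn and Col23a1.

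By the same limits the largest fall was in Etv4. Next in this ranking were the Ly6 surface proteins Ly6c2 (-3.39 ± 0.35) and Ly6c1, with Ly6g (-2.79 ± 0.40) further down, neighbours on chromosome 15 of which Ly6c1 and Ly6c2 are near-identical copies that may share reads. Histidine decarboxylase (Hdc), which makes histamine, fell from 398 ± 124 to 108 ± 114 normalised reads (-3.07 ± 0.57), and moesin (Msn), which ties the membrane to actin, by 2.75 on the log2 scale. The potassium channel Kcnn4 fell in both lines (-3.02 ± 0.31). Kcnn4 stood at 1023 and 975 in full medium against 166 and 244 without EGF in MTO100, and 249 and 269 against 13.8 and 24.9 in MTO101. Impa2 (-2.72 ± 0.38), the small noncoding RNA Bc1 (-2.94 ± 0.57) and Gcat (-2.45 ± 0.20), which breaks down threonine, complete these falls with Hoxb13, Mcm5, Tk1, Ldha and Ccnb1-ps, a pseudogene that may share the reads of Ccnb1.

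The log2 changes of the 2 lines correlated at r = 0.772 over 13931 genes, which share libraries and are not independent. The response differed between lines in 337 genes (2.34%), 156 with MTO101 above MTO100 (1.09%) and 181 below (1.26%). At an unadjusted limma p under 0.05 it differed in 2161 of 14373. With 2 libraries per line and medium, a gene without a call is not shown to answer alike in both lines. Leaving out single libraries gave 80 to 982 genes, and only the fit without the pool 1 full-medium library of MTO101 (447) stayed within 1.5 times. Fer1l4 stood at 306 and 278 in full medium against 342 and 410.1 without EGF in MTO100, and 53 and 60.2 against 998 and 1314 in MTO101. It rose in MTO101 (4.32) and little in MTO100 (0.36; difference 3.96 ± 0.34, adjusted p = 0.000882). The mucus protein Fcgbp (difference 3.57 ± 0.54), the calcium sensor Ncald (3.47 ± 0.48), Fam83e (3.23 ± 0.40) and Slc5a1 (3.18 ± 0.64) differed the same way. All of them but Ncald were lower in MTO101 than in MTO100 in full medium, and Fam83e changed by 3.32 in MTO101 and 0.09 in MTO100. Hdc fell by more in MTO101 (-4.88) than in MTO100 (-1.27; difference -3.61 ± 0.41, adjusted p = 0.00236), and so did the coregulator Cited1 (-2.89 ± 0.48), Sp5 (-2.81 ± 0.29) and the carboxypeptidase subunit Cpn1 (-2.76 ± 0.30). Clstn2 stood at 96.5 and 148 in full medium against 911 and 848 without EGF in MTO100, and 69.1 and 103 against 77.2 and 111 in MTO101. Its 2 MTO100 libraries without EGF stood apart from the other 6 (difference -2.74 ± 0.45, adjusted p = 0.0124). In the 8 fits that left out 1 library, Slc5a1 lost its call in 6 and Cited1 and Clstn2 in 3 each, and Slc5a1 also with the pool as a block (adjusted p = 0.0649).

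**Figure D4:**
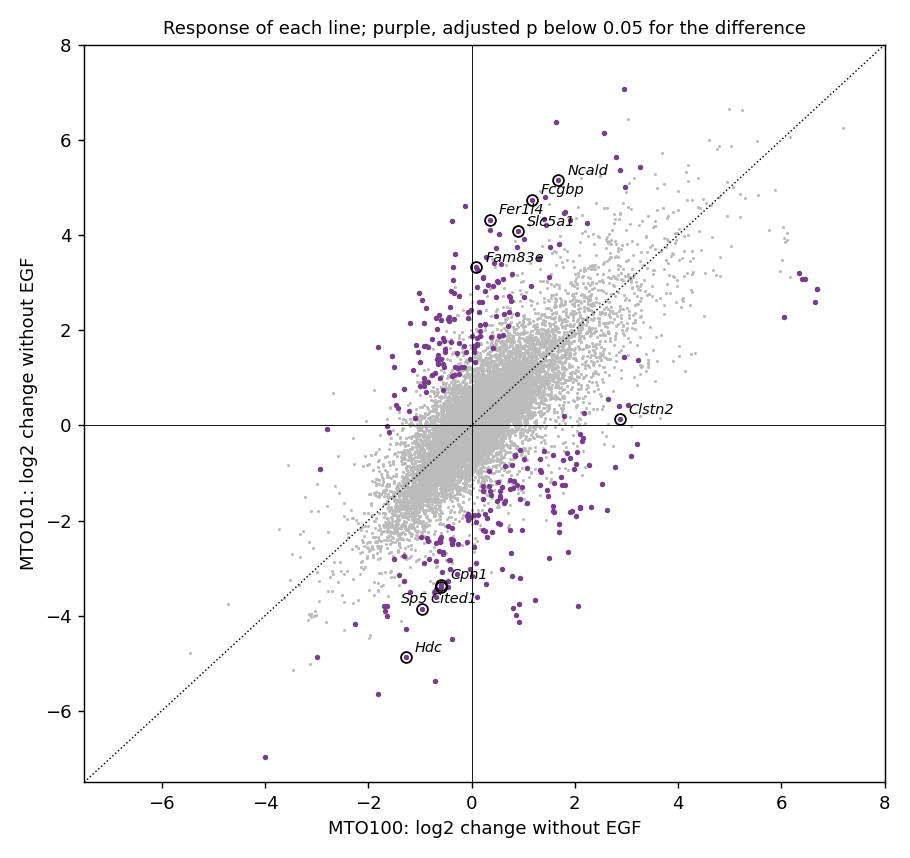
Log2 change without EGF in MTO100 (x axis) and MTO101 (y axis) of 13931 genes; purple marks the genes of the 337 whose response differed between lines (limma, adjusted p under 0.05) that were tested in both, and circles name 10 of them. Hdc and Sp5 lie below the dotted line of equal change and Fer1l4 and Fam83e above it.

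The response was set beside that of the study's other lines, MTO54 and MTO220, labelled AKP, in medium without galunisertib and with TGF-beta1, against full medium, 4 libraries each. Those lines are labelled as wild type for Tgfbr2 and were also collected at day 4 and day 7, so the days are the same on both sides, and no library is shared. The genotype and the medium, which there still held EGF, differ and cannot be told apart. The responses differed in 4440 of 15087 genes (29.4%), APT above in 2282 (15.1%) and below in 2158 (14.3%). In AKP 30.4% of genes were called higher and 27.6% lower. ERK-linked genes were among those whose responses differed: Etv4 changed by -0.19 ± 0.14 in AKP, a difference of -3.75 ± 0.20 (adjusted p = 1.82e-08), Ccnd1 by 0.92 ± 0.14 (difference -2.15 ± 0.20, adjusted p = 2.53e-06) and Dusp4 by 0.87 ± 0.22 (difference -2.17 ± 0.31, adjusted p = 0.000102). APT was below AKP in 7 of 10 genes of the MAPK score, 10 of 16 feedback inhibitors and 13 of 21 ERK-induced factors, and above in 1 of each. The median of the 5 tested EGFR ligands was 1.20 in APT and 1.03 in AKP, whose medium still held EGF. For these ligands APT was above AKP in 0 and below in 1.

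Cell cycle lists had negative medians on both sides. The S phase median was -1.77 in APT and -1.34 in AKP, and 14 of 37 members fell further in APT; the mitosis medians were -1.75 and -1.33, with 10 of 37 further down in APT. For ribosomal protein and nuclear respiratory chain genes limma called the difference for no member (0 of 38 and 0 of 25; 0 and 2 at an unadjusted p under 0.05). Malat1 rose by 3.90 ± 0.52 in AKP (difference 0.17 ± 0.74, adjusted p = 0.89) and Il18 by 3.92 ± 0.26 (difference 0.05 ± 0.37, adjusted p = 0.939). The medians of the Paneth, enteroendocrine and goblet lists went apart. The summed levels in AKP, in ppm of reads, did not all fall with TGF-beta1. In MTO54 the Paneth list rose from 181 and 213 to 404 and 458. There the granule and hormone list rose from 210 and 287 to 775 and 845. In MTO220 the Paneth list went from 1053 and 1051 to 897 and 910. Its granule and hormone list went from 805 and 855 to 775 and 714. The goblet list fell in both lines. The tuft list had a positive median on both sides, 1.46 in APT and 0.77 in AKP. APT was above AKP in 6 and below in 3 of its 11 tested genes. The goblet median was 0.66 in APT and -3.42 in AKP. Chga changed by -1.52 ± 0.32 in AKP (difference 6.14 ± 0.46, adjusted p = 3.33e-07), Neurog3 by -3.43 ± 0.29 (difference 5.38 ± 0.41) and Pla2g2a by -5.93 ± 0.31 (difference 8.41 ± 0.44), and APT was above AKP in 15 of 19 Paneth, 15 of 21 granule and hormone and all 19 goblet genes. Among genes that met the limits on level and direction above, Reg4, a secretory cell lectin, had the highest difference (9.44 ± 0.39, adjusted p = 4.6e-09), and Nexmif (-7.22 ± 0.74), Clu (-5.64 ± 0.24), fibronectin (Fn1, -5.53 ± 0.43), the laminin chain Lama3 (-5.32 ± 0.52) and Msn (-5.25 ± 0.21) the lowest. Fn1, Lama3 and Clu rose on both sides, by 1.27 ± 0.32, 1.93 ± 0.38 and 0.74 ± 0.17 in APT and by 6.80 ± 0.31, 7.25 ± 0.37 and 6.38 ± 0.17 in AKP.

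**Figure D5:**
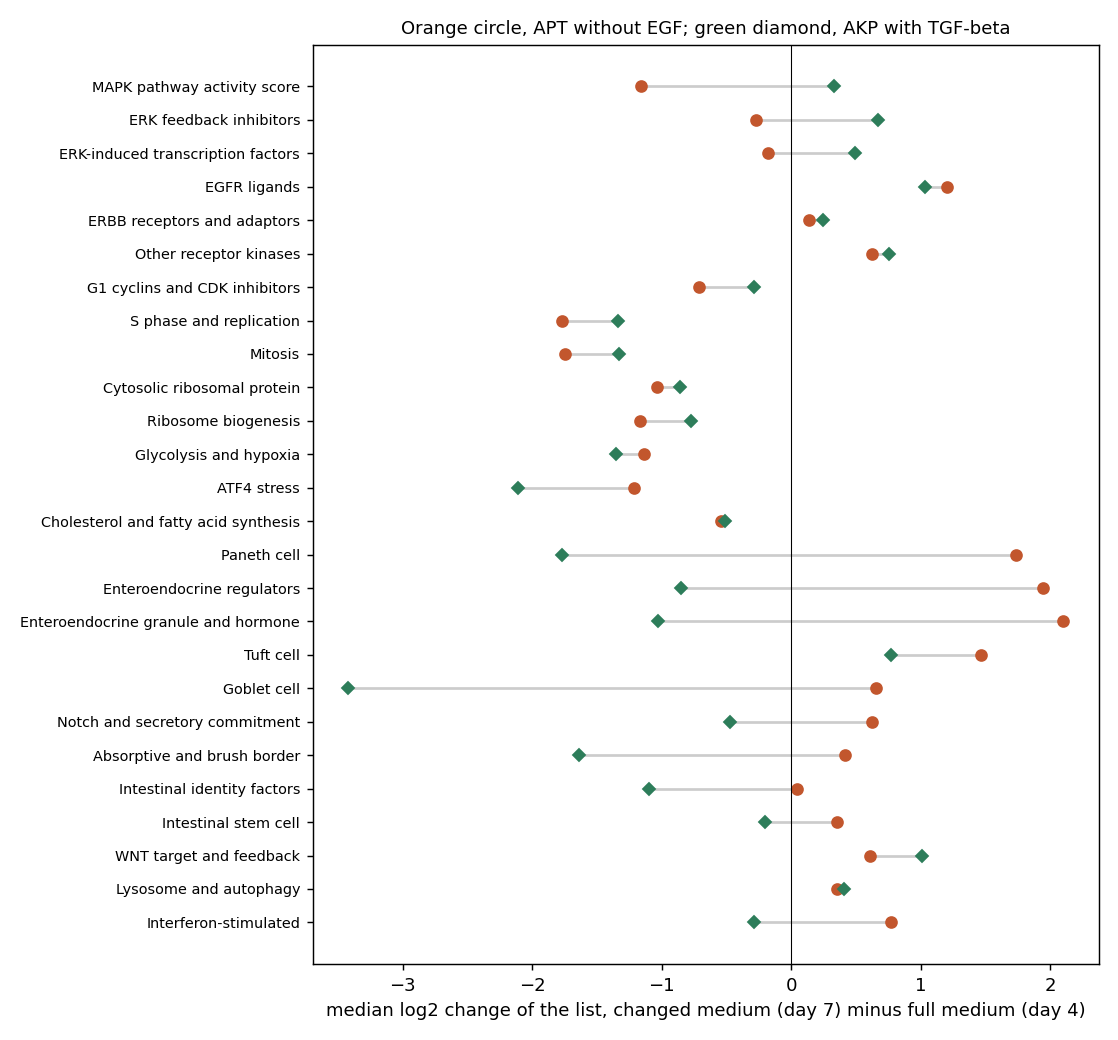
Median log2 change of 26 gene lists (y axis) on leaving out EGF in APT lines (orange circles) and with TGF-beta1 in AKP lines (green diamonds), each against full medium (x axis, day 7 minus day 4). The medians of S phase, mitosis and ribosomal lists lie close together, and those of Paneth, enteroendocrine and goblet lists lie apart.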

How the data were processed

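Poly(A) RNA of 16 mouse tumour organoid libraries was sequenced, and 8 of them are described here. Per the labels' protocols, poly(A) selection and library synthesis used NEBNext kits with 9 to 10 cycles of amplification; these kits do not mark strand, and no molecular identifiers are described. Per the submitters' processing notes, STAR 2.3.0e, DESeq2 1.22.1 and the mm10 build were used; the role of each and the gene annotation are not given in the sources used here. The deposited signal values are read counts per Entrez gene divided, by the authors, by 1 size factor per library, for 27179 genes. Reads recovered from the steps of the values were whole within 0.001 for 100% of values and were used for depths, for edgeR 4.0.16 and for DESeq2 1.42.0. Symbols and coordinates came from RefSeq on GRCm38.p6, which is mm10, and 25275 IDs matched (93.0%).

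limma 3.58.1 (R 4.3.3) fitted log2 of the normalised reads + 1 with line and medium as terms, an intensity trend and robust moderation, over genes with at least 10 in at least 4 of 8 libraries, with Benjamini-Hochberg adjusted p under 0.05 as a call. Fold changes are on this log2 scale and understate those of low genes. The line difference is MTO101 minus MTO100, and the difference from AKP used all 16 libraries. The script was tested on simulated data. The labels give libraries of a line and number a shared passage and pool; deviations of same-numbered libraries correlated at 0.207 in MTO100 and 0.150 in MTO101 between media, and pool entered as a block in an alternative. Named genes were the 15 most changed in each direction (replication-dependent histones and models with no established symbol aside), the best called members of each list, members of the ERK, cell cycle and lineage lists, and the 5 most different between lines or from AKP; genes singled out beyond these were chosen after their values were seen. Members and lists were chosen with earlier results of these data known. Some genes and 1 allele label that fall under the rule are not reported here. Reads are not independent molecules, so precision rests on the libraries, 4 per group.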

Additional observations from a re-analysis of the deposited data

Results flagged for a closer look

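Libraries that stood far from the 3 others of their medium were looked for in each named gene and library measure, by Dixon's test. Of 410 gene groups 11 were flagged, and of 14 library measures 1; chance flags about 1 in 20. In full medium the pool 2 library of MTO101 was set apart by low Shmt2 (5499 normalised reads) and Cdt1 (2031) and by high Egfr (635), Apc (1892) and Dusp16 (797). The pool 1 full-medium library of MTO101 was set apart by high Phgdh (17813) and Bc1 (2769), and the pool 2 full-medium library of MTO100 by low Bmi1 (369.98). Without EGF the low-RNA library of MTO100 held more Rps2 (6331) and Gcat (607) than the others, the low-RNA library of MTO101 more Rtl5 (2602), and the pool 1 library of MTO101 had the highest RNA concentration, at 354 ng/µl.

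The response differed between lines, by limma's interaction term, in 25 named genes. The differences are MTO101 minus MTO100 in log2. They were above 0 in Fer1l4 (3.96), Fcgbp (3.57), Ncald (3.47), Fam83e (3.23), Slc5a1 (3.18), Lyz1 (2.84), Mst1r (2.21), Cd200r2 (2.17) and Ctsd (1.62). They were below 0 in Gfi1b (-4.65), Dclk1 (-4.03), Hdc (-3.61), Cited1 (-2.89), Sp5 (-2.81), Cpn1 (-2.76), Clstn2 (-2.74), Hoxb13 (-2.38), Ly6g (-2.24), Impa2 (-2.16), Msn (-2.09), Ccnd2 (-1.97), Ly6c1 (-1.91), Etv4 (-1.88), Cdca7 (-1.75) and Cdx2 (-1.65). Of the 25, 16 lost their call when some single library was left out, and Hoxb13, Ly6c1, Ly6g, Slc5a1 and Ctsd also with the pool as a block (adjusted p 0.0506 to 0.0844).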

How the results depend on the processing

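Of 26 alternatives for the comparison of media, most kept the count of called genes within 1.5 times of 6969. The exceptions were pool 1 alone for the higher genes (2463), pool 2 alone (2961, of which 1720 higher and 1241 lower), the pools averaged per line and medium (4361, 2338 and 2023), both low-RNA libraries left out (3804, 1951 and 1853) and a test for changes above 2-fold (851, 604 and 247). These use fewer libraries or a stricter null. Leaving out 1 library at a time gave 5000 to 7194 calls; on the recovered reads edgeR's quasi-likelihood test called 6903 and DESeq2 7285. Scaling to the library total called 5068 genes higher and 2082 lower, 70.9% higher against 55.2%, and moved the median of all genes from 0.08 to 0.30.

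The line difference (337 genes) ranged from 80 to 982 when 1 library was left out, 34 to 525 above and 43 to 457 below, highest without the pool 2 full-medium library of MTO101; the cause was not tested. The difference from AKP (4440) ranged from 3512 to 5004, and edgeR was not run for it, since the size factor of 1 AKP library lies too near 1 to check its reads as recovered. With the pool as a replicate block, 6976 genes were called between media, 255 between lines and 4976 from AKP; beside the 5 line differences given above and Igf1r, which gained a call, it changed the call of no gene named in the text.

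Of 180 named genes called between media, 166 were tested and called without each library in turn, 6 lost their call in some such fit, and 8 others fell below the filter on low values in some and had no result there. Without both low-RNA libraries 150 were called, 20 lost their call and 10 fell below the filter. Of 25 named genes that were not called, 7 were without some 1 library (Egr1, Reg3b and Sox9 beside those in the report). Counts of 0 to 4 members of a list, apart from those given in the report, moved by at most 2 genes without 1 library. Dclk1, not called over both lines, was called lower in MTO101 alone (-1.72). With 2 libraries per line and medium, small changes in low genes were not detectable, and day and medium cannot be told apart.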
